A study of Homo sapiens with 6 samples.

Results

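NRF2, encoded by NFE2L2, is the transcription factor that turns on antioxidant and detoxification genes. KEAP1 holds it in the cytoplasm and directs its degradation until oxidants or electrophiles modify KEAP1. The genes it controls make glutathione, reduce thioredoxin, supply NADPH, store iron, degrade haem, and modify or export foreign compounds. In squamous carcinomas of the oesophagus the pathway is known as a recurrent site of activating mutations. The 32 genes described here are NFE2L2, KEAP1 and 30 of their targets and partner enzymes. They were chosen by name from the 58735 genes of the deposited expression table, as members of the pathway. Earlier results of these data were known when they were chosen. All 32 were found.

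The cells were KYSE30, an established line from a human oesophageal squamous cell carcinoma. All groups received a lipid reagent and siRNA at 100 nM, with no untransfected group. The groups were si-RAB23-9 and si-RAB23-1, which are siRNAs against the small GTPase gene RAB23, and the control si-NC, with 2 libraries each. The titles number the libraries of a group 1 and 2, and nothing says whether they came from separate cultures. The p-values below therefore rest on a library-to-library spread that may be technical. Neither the siRNA sequences nor the time to harvest could be taken from the labels.

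Values are FPKM, read counts scaled to gene length and library size, from 17211025 to 24178125 recovered reads per library. RAB23 itself was at 1.18 and 1.27 FPKM with si-RAB23-9 and 1.03 and 1.10 FPKM with si-RAB23-1, against 3.27 and 3.33 with si-NC. Of 6 squamous markers, 5 had a mean of at least 1 FPKM, among them TP63 and DSG3, while the basal keratin gene KRT5 stayed between 0.0394 and 0.272. The summed squamous markers were 31.7 to 31.9 FPKM with si-RAB23-9, 52.6 to 54.8 with si-RAB23-1 and 31.5 to 32.8 with si-NC. The part of this shift in the results below was not tested. Of the 12 markers of leukocytes, endothelium and fibroblasts, COL1A1 and CDH5 alone exceeded 1 FPKM on average, and DCN and KDR were listed at 0. The summed endothelial markers, nearly all CDH5, were 2.73 and 3.16 FPKM with si-RAB23-9 and 1.62 and 2.09 FPKM with si-RAB23-1, against 3.79 and 3.77 FPKM with si-NC. The 4 markers of columnar epithelium summed to at most 0.637 FPKM, with TFF3 listed at 0.

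Changes are differences of group means of log2(FPKM + 1), a scale on which genes with low values appear to change less than they do. They were tested with limma over 14352 genes, with a call wherever the p adjusted by Benjamini-Hochberg lay under 0.05. A total of 28 members were tested, and each of these had at least 2.24 FPKM in every library. In bulk RNA, fewer cells that express a gene and less RNA per cell cannot be told apart.

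RAB23 siRNA moved single members of this set in both directions, and for 12 of them the siRNAs differed from each other. ME1, TKT and FTL rose with both and TXNRD1 fell with both. HMOX1, SRXN1, GCLC and GCLM were higher with si-RAB23-1 than with si-NC and than with si-RAB23-9. FTH1 went in opposite directions, lower with si-RAB23-9 and higher with si-RAB23-1. NFE2L2 and KEAP1 did not pass the test in any comparison.

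With si-RAB23-9, 4 of the 28 members rose and 3 fell, against 7.56% and 5.69% of all tested genes. With si-RAB23-1, 11 rose and 3 fell, against 8.13% and 7.26% of all tested genes. Over all genes this was 1167 higher and 1042 lower, while voom, run on recovered reads scaled by library totals, gave 1622 higher and 2178 lower. With median-of-ratios sizes, voom gave 1879 higher and 1915 lower. The FPKM denominators were 0.963 and 0.976 of the recovered totals with si-RAB23-1, against 0.987 and 0.990 with si-NC. The part of this in the split by direction was not tested. The median log2 fold change of the 28 was 0.07 with either siRNA, beside 0.01 over all tested genes with each. Between the siRNAs, 12 members differed, against 21% of all tested genes. Of these, 5 were higher with si-RAB23-9 and 7 lower, against 11.1% and 9.89% of all tested genes. Both comparisons with si-NC share the same control libraries, so a deviation of these would enter both. Of the 28, 10 (35.7%) passed the test in none of the 3 comparisons, as did 69.3% of all tested genes. All tested genes include 974 with a mean under 10 reads, while each of the 28 had at least 66 reads in every library. Shares here and below are therefore not matched for level.

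**Figure D1:**
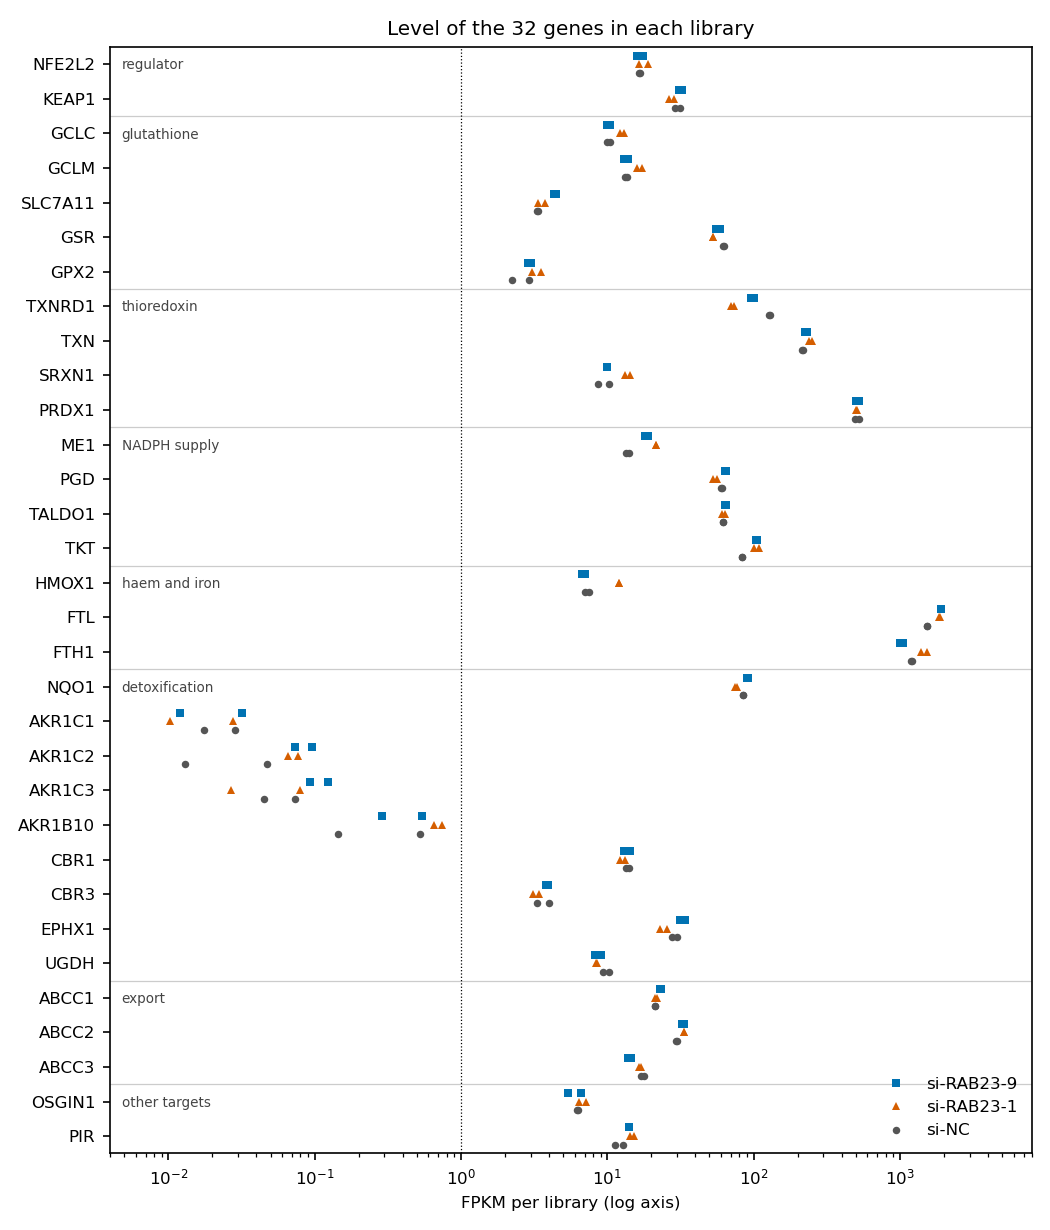
FPKM of the 32 genes in each of the 6 libraries on a log axis, grouped by role (squares si-RAB23-9, triangles si-RAB23-1, circles si-NC; the dotted line marks 1 FPKM). FTL and FTH1 are the highest members in every library, and AKR1B10, AKR1C1, AKR1C2 and AKR1C3 lie below 1.

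The regulators showed little change in transcript against si-NC. NFE2L2 was at 17.6 and 16.1 FPKM with si-RAB23-9 and 18.9 and 16.4 FPKM with si-RAB23-1, against 16.6 and 16.7 with si-NC. These ranges overlap, and the log2 fold changes were 0.02 (SE 0.075, limma adjusted p = 0.918) and 0.08 (limma adjusted p = 0.514). KEAP1 was at 30.8 and 32.2 FPKM with si-RAB23-9 and 26.4 and 28.8 FPKM with si-RAB23-1, against 29.1 and 31.3 with si-NC. The si-RAB23-1 libraries were the lowest, with a log2 fold change of -0.13 against si-NC that was not called (limma adjusted p = 0.21). Between the siRNAs the KEAP1 ranges did not overlap, and the difference of 0.19 was not called (limma adjusted p = 0.0782). Of 8 alternatives that kept all libraries, 4 called this difference and 1 called the change with si-RAB23-1 against si-NC. Transcript level says nothing of the stability of the NRF2 protein, which is where KEAP1 is known to act.

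TXNRD1 fell with both siRNAs and had the largest change of the set with si-RAB23-1. It encodes the cytosolic selenoprotein that uses NADPH to reduce thioredoxin, and lies on chromosome 12, 104215779 to 104350305 (GRCh38, plus strand). Its level was 101 and 96.6 FPKM with si-RAB23-9 and 73.2 and 69.6 FPKM with si-RAB23-1, against 130.2 and 127.7 with si-NC. No group overlapped another, and the order of the groups was si-RAB23-1, si-RAB23-9 and si-NC from low to high. The means were 0.766 and 0.554 times that of si-NC with si-RAB23-9 and si-RAB23-1. The log2 fold changes were -0.38 (limma adjusted p = 0.00602) and -0.84 (SE 0.0397, limma adjusted p = 0.00184), and the siRNAs differed by 0.46 (limma adjusted p = 0.00254). The first of these calls was lost without si-NC replicate 1 or si-RAB23-9 replicate 2 (limma adjusted p up to 0.0562), and the other calls held with any 1 library left out.

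The other thioredoxin genes did not follow TXNRD1. TXN, the thioredoxin gene itself, was at 232 and 225 FPKM with si-RAB23-9 and 253 and 238 FPKM with si-RAB23-1, against 218 and 216 with si-NC. It was higher in each siRNA library than in the controls, and passed the test with si-RAB23-1 (0.18 on the log2 scale, limma adjusted p = 0.0337) but not with si-RAB23-9 (0.08, limma adjusted p = 0.245). Within a library the ratio of TXNRD1 to TXN FPKM was 0.435 and 0.429 in the si-RAB23-9 libraries and 0.290 and 0.292 in the si-RAB23-1 libraries, against 0.598 and 0.592 with si-NC. SRXN1, which encodes the sulfiredoxin that repairs overoxidised peroxiredoxins, was at 9.91 and 10.0 FPKM with si-RAB23-9 and 13.2 and 14.3 FPKM with si-RAB23-1, against 10.3 and 8.65 with si-NC. Only the si-RAB23-1 libraries lay outside the control range, with a log2 fold change of 0.50 (limma adjusted p = 0.0179), and the siRNAs differed by -0.43 (limma adjusted p = 0.0216). PRDX1, the gene of an abundant peroxiredoxin, stayed between 494 and 527 FPKM in all 6 libraries and passed no test.

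SRXN1 shares 85% of its annotated exonic bases, on the same strand, with AL121758.1, which averaged 0.0581 FPKM. With 1 library left out, the log2 fold change with si-RAB23-1 stayed at 0.13 to 0.22 for TXN and 0.38 to 0.61 for SRXN1. Several calls of this group were nonetheless lost in such fits, which have fewer libraries to estimate the spread. That of TXN held only without si-RAB23-1 replicate 2 (limma adjusted p up to 0.152 otherwise). That of SRXN1 against si-NC was lost without si-NC replicate 2 or either si-RAB23-1 library (up to 0.063), and its difference between the siRNAs without any of their libraries (up to 0.0984).

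Of the members grouped under NADPH supply and the pentose phosphate pathway, ME1 and TKT rose with both siRNAs. ME1 encodes cytosolic malic enzyme, which makes NADPH from malate, and lies on chromosome 6, 83210389 to 83431071 (GRCh38, minus strand). It was at 18.95 and 18.1 FPKM with si-RAB23-9 and 21.6 and 21.4 FPKM with si-RAB23-1, against 13.4 and 14.2 with si-NC. Every siRNA library was above every control library, at 1.34 and 1.56 times the control mean. The log2 fold changes were 0.40 (limma adjusted p = 0.00655) and 0.60 (SE 0.0442, limma adjusted p = 0.00295). TKT, the gene of transketolase in the pentose phosphate pathway, was at 103 and 106 FPKM with si-RAB23-9 and 101 and 109 FPKM with si-RAB23-1, against 83.4 and 83.2 with si-NC. Its change was alike in size with both siRNAs, 0.33 (limma adjusted p = 0.00998) and 0.33 (limma adjusted p = 0.00898), with a difference between them of -0.01 (SE 0.0428).

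The remaining pentose phosphate members moved less. PGD, the gene of 6-phosphogluconate dehydrogenase, was at 64.1 and 64.8 FPKM with si-RAB23-9 and 52.6 and 56.5 FPKM with si-RAB23-1, against 59.7 and 61.2 with si-NC. The siRNA groups lay on opposite sides of the control, and the difference between them passed the test (0.24, limma adjusted p = 0.0177) while neither did against si-NC (limma adjusted p = 0.225 and 0.0759). TALDO1, the transaldolase gene, stayed between 61.1 and 65.3 FPKM and passed no test. The ME1 call with si-RAB23-1 held with any 1 library left out. With si-RAB23-9 it was lost without si-NC replicate 1 or si-RAB23-9 replicate 1 (limma adjusted p up to 0.0546), and the ME1 difference between the siRNAs (-0.20) without any 1 library (up to 0.156). Leaving out either si-NC library ended both TKT calls (up to 0.0792 and 0.0651), and leaving out either si-RAB23-9 library ended the one with si-RAB23-9. Leaving out either si-RAB23-9 library also ended the PGD difference (up to 0.102).

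HMOX1 was higher with si-RAB23-1 alone. It encodes the inducible haem oxygenase, which releases iron from haem, and lies on chromosome 22, 35380361 to 35394214 (GRCh38, plus strand). It was at 6.9995 and 6.75 FPKM with si-RAB23-9 and 11.9 and 12.1 FPKM with si-RAB23-1, against 7.49 and 7.02 with si-NC. The si-RAB23-1 mean was 1.66 times the control, a log2 fold change of 0.66 (SE 0.0477, limma adjusted p = 0.0029). With si-RAB23-9 it was -0.07 (limma adjusted p = 0.41), and the siRNAs differed by -0.73 (limma adjusted p = 0.00144). Both the rise with si-RAB23-1 and the difference between the siRNAs held with any 1 library left out.

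Ferritin, the iron store into which freed iron is placed, is built from a light chain (FTL) and a heavy chain (FTH1), and the genes of these subunits parted with si-RAB23-9. FTL (chromosome 19, 48965301 to 48966878, plus strand) was at 1921 and 1917 FPKM with si-RAB23-9 and 1894 and 1849 FPKM with si-RAB23-1, against 1531 and 1523 with si-NC. All siRNA libraries exceeded the controls, with log2 fold changes of 0.33 (SE 0.0235, limma adjusted p = 0.00281) and 0.29 (limma adjusted p = 0.00347). FTH1 (chromosome 11, 61959718 to 61967660, minus strand) was at 1007 and 1049 FPKM with si-RAB23-9 and 1386 and 1543 FPKM with si-RAB23-1, against 1200 and 1216 with si-NC. The controls lay between the siRNA groups, with no overlap. FTH1 fell by 0.23 with si-RAB23-9 (limma adjusted p = 0.0449) and rose by 0.28 with si-RAB23-1 (limma adjusted p = 0.0264), and the siRNAs differed by -0.51 (limma adjusted p = 0.00422). The ratio of FTL to FTH1 FPKM was 1.91 and 1.83 in the si-RAB23-9 libraries and 1.37 and 1.198 in the si-RAB23-1 libraries, against 1.28 and 1.25 with si-NC.

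The FTL calls held with any 1 library left out, but not when all genes above 0 were tested without a filter (limma adjusted p = 0.0995 and 0.118). Both FTH1 calls against si-NC were lost under quantile normalization (limma adjusted p = 0.168 and 0.163) and without either si-NC library or either si-RAB23-9 library (up to 0.195 and 0.125). The FTH1 difference between the siRNAs held with any 1 library left out. Processed pseudogenes resemble both mRNAs. The 25 FTH1 pseudogenes in the table summed to between 41.9 and 57.2 FPKM per library, at most 4.61% of FTH1, and the 16 of FTL to at most 0.415% of FTL. FTH1 shares 62.4% of its annotated exonic bases with BEST1 on the opposite strand, which averaged 0.323 FPKM.

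**Figure D2:**
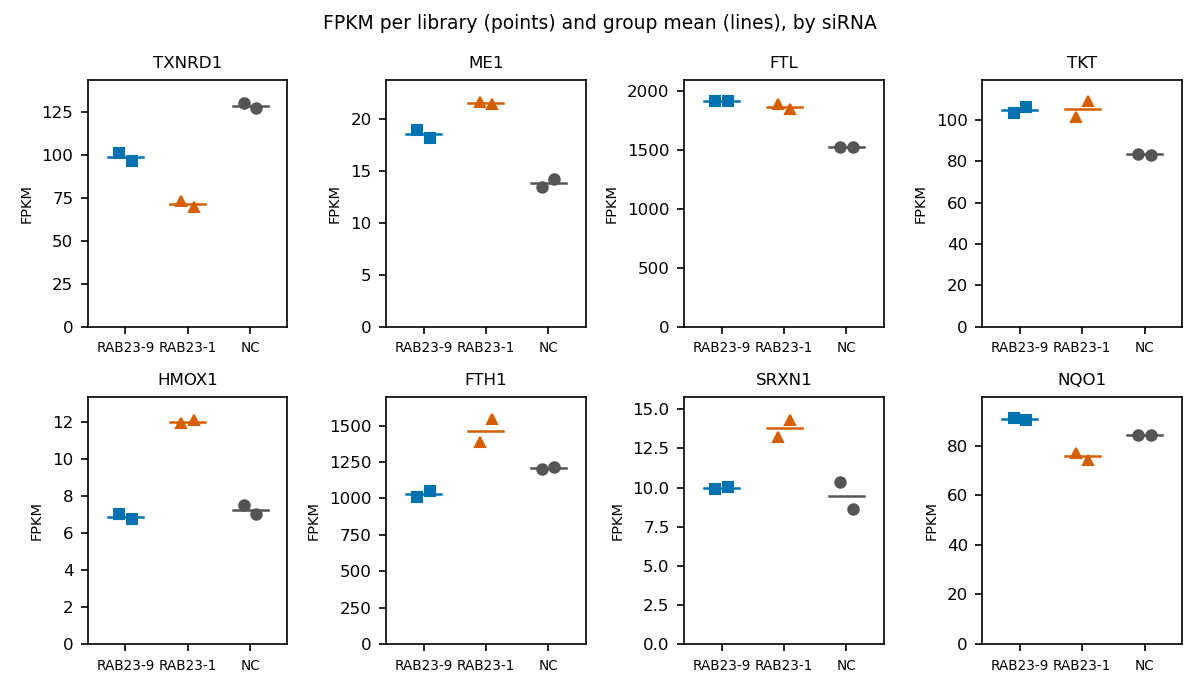
FPKM of 8 members per library (points) with the group mean (lines), on linear axes from 0, with si-RAB23-9, si-RAB23-1 and si-NC from left to right. TXNRD1 is lowest with si-RAB23-1, HMOX1 and SRXN1 are highest there, and FTH1 lies below the control with si-RAB23-9 and above it with si-RAB23-1.

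Both subunits of the enzyme that makes the glutathione precursor rose with si-RAB23-1 and not with si-RAB23-9. GCLC, the catalytic subunit of glutamate-cysteine ligase, was at 9.91 and 10.5 FPKM with si-RAB23-9 and 13.1 and 12.2 FPKM with si-RAB23-1, against 9.97 and 10.4 with si-NC. GCLM, its modifier subunit, was at 13.9 and 13.0 FPKM with si-RAB23-9 and 17.4 and 15.9 FPKM with si-RAB23-1, against 13.1 and 13.7 with si-NC. For both genes the si-RAB23-9 range overlapped the control and the si-RAB23-1 libraries lay above it. With si-RAB23-1 the log2 fold changes were 0.28 for GCLC (limma adjusted p = 0.0256) and 0.29 for GCLM (limma adjusted p = 0.0314). The siRNAs differed by -0.29 for each (limma adjusted p = 0.0209 and 0.0259). The calls against si-NC held only without si-RAB23-1 replicate 2, with limma adjusted p up to 0.133 and 0.151 otherwise. The differences between the siRNAs were also lost without si-RAB23-1 replicate 1 or either si-RAB23-9 library (up to 0.107 and 0.133), and that of GCLM without either si-NC library.

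The cystine importer and glutathione reductase went other ways. SLC7A11, which imports the cystine needed for glutathione, was at 4.495 and 4.32 FPKM with si-RAB23-9 and 3.74 and 3.34 FPKM with si-RAB23-1, against 3.30 and 3.39 with si-NC. Both si-RAB23-9 libraries stood above the other groups, while the si-RAB23-1 range overlapped the control, and si-RAB23-9 gave a log2 fold change of 0.32 (limma adjusted p = 0.031). The siRNAs differed by 0.25 (limma adjusted p = 0.042). GSR, which encodes the reductase that regenerates glutathione with NADPH, was at 58.9 and 55.4 FPKM with si-RAB23-9 and 52.7 and 52.5 FPKM with si-RAB23-1, against 63.0 and 62.2 with si-NC. It was below the control in every siRNA library. The change passed the test with si-RAB23-1 (-0.25, limma adjusted p = 0.0144) and not with si-RAB23-9 (-0.13, limma adjusted p = 0.0817).

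The SLC7A11 call against si-NC was lost without either library of si-NC or of si-RAB23-9 (reaching a limma adjusted p of 0.149), and its difference between the siRNAs without any 1 library (up to 0.171). The GSR call was lost without either si-NC library or si-RAB23-1 replicate 1 (up to 0.0909). GPX2, a glutathione peroxidase gene of epithelia, lay between 2.24 and 3.503 FPKM on 77 to 102 reads per library and passed no test.

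Among the detoxification enzymes NQO1 and EPHX1 separated the siRNAs. NQO1 encodes the quinone reductase long used as a readout of NRF2, and lies on chromosome 16, 69706996 to 69726951 (GRCh38, minus strand). It was at 91.3 and 90.4 FPKM with si-RAB23-9 and 77.1 and 74.4 FPKM with si-RAB23-1, against 84.2 and 84.3 with si-NC. The siRNA groups lay above and below the control, with no overlap. NQO1 fell by 0.15 with si-RAB23-1 (limma adjusted p = 0.0305), stood at 0.11 with si-RAB23-9 (limma adjusted p = 0.0803), and differed by 0.26 between the siRNAs (limma adjusted p = 0.00613). EPHX1, the microsomal epoxide hydrolase gene, was at 31.3 and 34.3 FPKM with si-RAB23-9 and 22.9 and 25.5 FPKM with si-RAB23-1, against 27.9 and 29.9 with si-NC. It showed the same order of groups, with a difference of 0.42 between the siRNAs (limma adjusted p = 0.0152) and no call against si-NC (limma adjusted p = 0.174 and 0.075).

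The NQO1 call against si-NC held only without si-RAB23-1 replicate 1 (limma adjusted p up to 0.144 otherwise). Leaving out either si-RAB23-9 library ended its difference between the siRNAs (up to 0.052). The EPHX1 difference was lost without si-RAB23-1 replicate 1 or si-RAB23-9 replicate 2 (up to 0.0839).

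The carbonyl reductase genes CBR1 and CBR3, and UGDH, which makes UDP-glucuronate for conjugation, passed no test. CBR1 lay between 12.3 and 14.4 FPKM, CBR3 between 3.12 and 3.98 on 66 to 111 reads, and UGDH between 8.29 and 10.3. The aldo-keto reductase genes among the members, often prominent NRF2 targets in other carcinoma lines, were near zero in these cells and were not tested. AKR1B10 had 6 to 29 reads per library (0.144 to 0.748 FPKM). AKR1C1, AKR1C2 and AKR1C3, neighbours on chromosome 10 with closely similar sequences, had 2 to 11 reads each per library. Reads of these 3 could have been assigned to any of them.

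The exporters of conjugates moved apart as well. ABCC3, an efflux pump gene, was at 13.8 and 14.5 FPKM with si-RAB23-9 and 16.5 and 17.1 FPKM with si-RAB23-1, against 17.8 and 17.1 with si-NC. It fell by 0.28 with si-RAB23-9 (limma adjusted p = 0.0153), was at -0.05 with si-RAB23-1 (limma adjusted p = 0.501), and differed by -0.24 between the siRNAs (limma adjusted p = 0.0197). ABCC2 was at 32.3 and 33.5 FPKM with si-RAB23-9 and 33.7 and 33.6 FPKM with si-RAB23-1, against 29.7 and 29.8 with si-NC. All siRNA libraries exceeded the controls. The change of 0.17 with si-RAB23-1 passed the test (limma adjusted p = 0.029), while 0.14 with si-RAB23-9 did not (limma adjusted p = 0.0533). ABCC1 stayed between 21.2 and 23.5 FPKM and passed no test.

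The ABCC3 calls were lost without either si-RAB23-9 library, that against si-NC also without either si-NC library and the difference also without either si-RAB23-1 library (reaching limma adjusted p of 0.0971 and 0.106). The ABCC2 call was lost without any 1 library (up to 0.14).

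Of the other targets, PIR, which encodes the iron-binding nuclear protein pirin, was at 13.99 and 14.07 FPKM with si-RAB23-9 and 15.2 and 14.3 FPKM with si-RAB23-1, against 11.4 and 12.7 with si-NC. Its rise passed the test with si-RAB23-1 (0.27, limma adjusted p = 0.0399) but not with si-RAB23-9 (0.20, limma adjusted p = 0.0868). The si-RAB23-1 call was lost without any 1 library (up to 0.151). OSGIN1, an oxidative stress induced growth inhibitor gene, lay between 5.43 and 7.17 FPKM and passed no test.

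**Figure D3:**
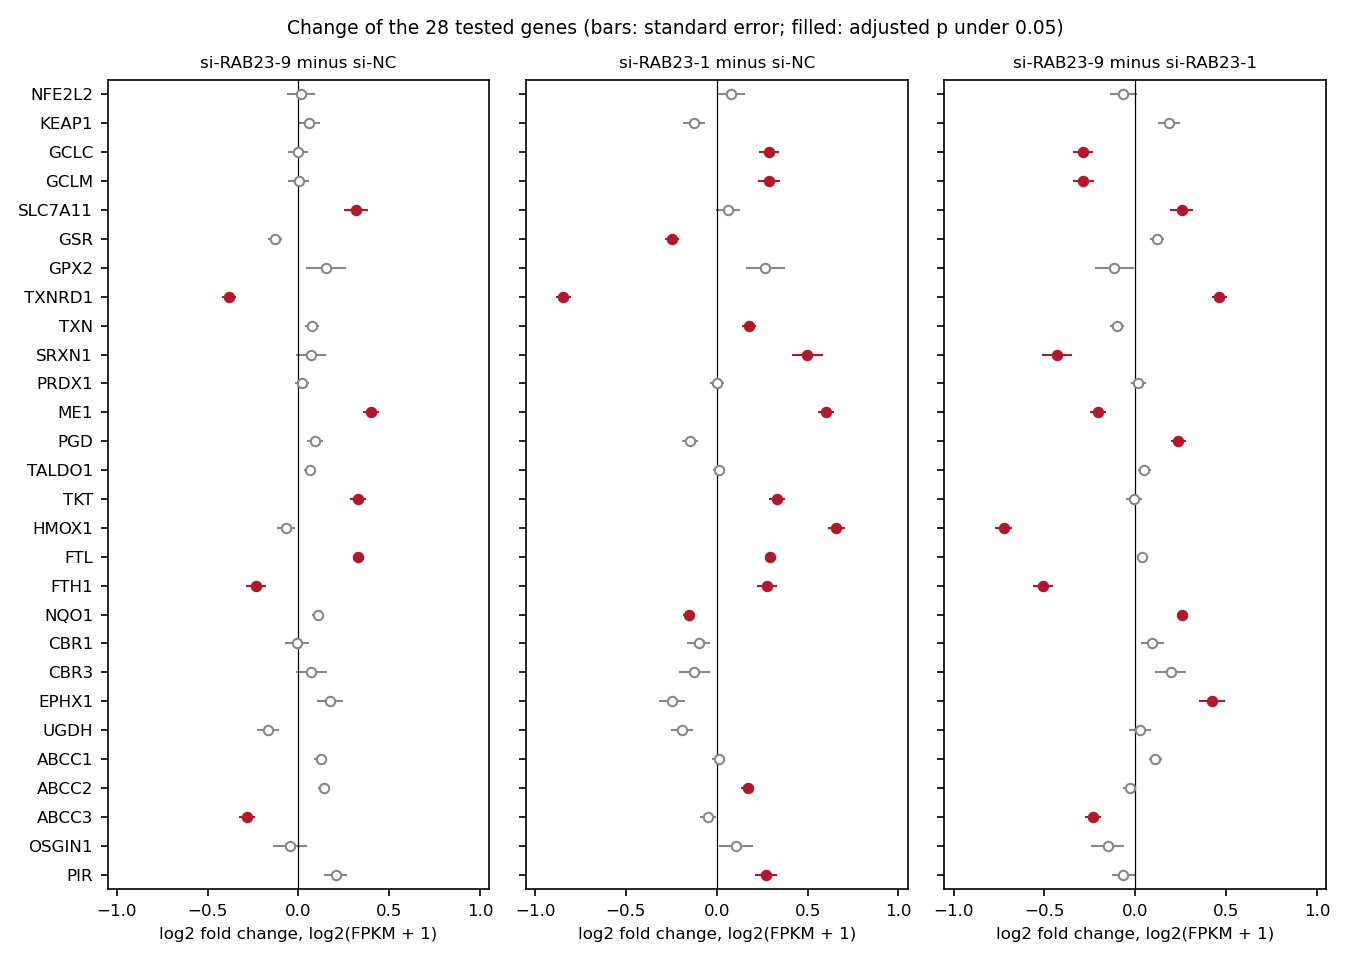
Log2 fold change of the 28 tested members on the log2(FPKM + 1) scale with its standard error, with 1 panel each for si-RAB23-9 against si-NC, si-RAB23-1 against si-NC, and si-RAB23-9 against si-RAB23-1 (filled red points: limma adjusted p under 0.05; open grey points: not called). The calls number 7, 14 and 12 of the 28, where 13.3%, 15.4% and 21% of all tested genes were called. TXNRD1 has the lowest value in both comparisons with si-NC.

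NRF2 binds the antioxidant response element, whose core is TGACNNNGC, as a partner of small MAF proteins. RefSeq promoter sequences of GRCh38.p14, 250 bases before to 50 after a gene start, were found for 23 of the 32 members and searched for this core on both strands. A gene can have several starts, and the 23 members had 29 such sequences. Counted by gene, the core was present at 1 or more starts of 9 of the 23 members and of 16.1% of all 27305 genes. Counted by sequence, it was in 10 of the 29 (34.5%) and in 13.3% of all 35116. Of these 9, TXNRD1 fell and ME1 rose with both siRNAs, GCLM and PIR rose with si-RAB23-1, PGD and EPHX1 were called only between the siRNAs, and GPX2, KEAP1 and CBR1 passed no test. The stricter form TGACTCAGC, which overlaps the AP-1 site TGACTCA, was present for ME1 and PIR, and for 0.689% of all genes, or in 0.561% of all sequences. The core matches of the members that changed against si-NC are given here with 10 bases on each side, in capitals and on the strand that carries them. That of ME1 lies at chr6:83431170-83431198 on the minus strand, that of PIR at chrX:15493289-15493317 on the plus strand and that of GCLM at chr1:93909446-93909474 on the plus strand. Those of TXNRD1 lie at chr12:104215670-104215698 on the plus strand, upstream of its first start, and at chr12:104286920-104286948 on the minus strand, upstream of an internal start.
ME1: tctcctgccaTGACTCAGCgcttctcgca
PIR: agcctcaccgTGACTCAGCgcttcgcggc
GCLM: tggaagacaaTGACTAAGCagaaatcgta
TXNRD1, first start: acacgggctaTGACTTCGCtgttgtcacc
TXNRD1, internal start: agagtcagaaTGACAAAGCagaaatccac
The matches in ME1 and PIR have the same 9 letters, as any match of the stricter form must. A link of these letters to the changes of either gene was not tested. A second core match of ME1, 12 bases after its start, and a further one of TXNRD1, 8 bases before its first start, are not shown. A match of letters is a description of the window and not a measured binding site. Sites outside these windows were not searched, so a member without a match may carry one elsewhere. The members were listed as pathway genes, and their share of matches is not independent of that choice.

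Members were also looked up for the 7-base words that went with the falls of each siRNA. Each 7-base word held by the longest annotated 3′ UTR of at least 50 tested genes was ranked by the standardised mean log2 fold change of its carriers, among 10907 genes with such a UTR. The lowest was GACATAT for si-RAB23-1, with a mean of -0.15 over 833 carriers, and AAGTTAA for si-RAB23-9, with a mean of -0.09 over 1821 carriers. All 28 tested members were scanned, and 0 of them hold AAGTTAA. The single carrier of GACATAT was SLC7A11 (GENCODE 29, chromosome 4, minus strand), at base 3380 of 7859 in its 3′ UTR.
SLC7A11: attacaatttGACATATcaatagaggg
Capitals mark the word. SLC7A11 stood at 0.06 with si-RAB23-1 against si-NC (limma adjusted p = 0.555). TXNRD1, GSR and NQO1, which fell with si-RAB23-1, and TXNRD1, FTH1 and ABCC3, which fell with si-RAB23-9, hold neither word in these UTRs. GACATAT was held by 7.64% and AAGTTAA by 16.7% of the scanned genes, so lacking them is the usual case. Both words were picked among 16185 by the fold changes of these same data, and the siRNA sequences were not at hand. Whether the siRNAs act on any member directly was not tested.

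A further 111 genes of the pathway and of redox metabolism, of which 94 were tested, gave 7 higher (7.45%) and 10 lower (10.6%) with si-RAB23-9, against 7.56% and 5.69% of all tested genes, so the share of rises was at the background. With si-RAB23-1, 14 were higher and 14 lower (14.9% each), against 8.13% and 7.26% of all tested genes. The median log2 fold changes of the 94 were -0.037 with si-RAB23-9 and -0.0011 with si-RAB23-1. PRDX4, the peroxiredoxin of the endoplasmic reticulum, rose the most with both siRNAs, by 0.57 (limma adjusted p = 0.00285) and 0.71 (limma adjusted p = 0.00209). Both PRDX4 calls held with any 1 library left out.

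Among 13 tested regulators, NFE2L1, an NRF2 relative that controls proteasome genes, rose by 0.30 with si-RAB23-9 (limma adjusted p = 0.00666) and 0.41 with si-RAB23-1 (limma adjusted p = 0.00347). MAFF, a small MAF partner, fell by 0.49 with si-RAB23-9 (limma adjusted p = 0.0118). SQSTM1, which encodes the KEAP1-binding autophagy receptor p62, rose by 0.31 with si-RAB23-1, while BTRC, a substrate receptor for NRF2 degradation, fell by 0.35 and NFE2L3 by 0.25. The other regulators tested, BACH1 and CUL3 among them, were not called against si-NC. Of the 13, 7.69% rose and 7.69% fell with si-RAB23-9, against 7.56% and 5.69% of all tested genes. The shares with si-RAB23-1 were 15.4% each, against 8.13% and 7.26%.

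Of 25 glutathione genes, 2 rose (8%) and 3 fell (12%) with si-RAB23-9, where 7.56% and 5.69% of all tested genes did, and the rises were thus near the background. These were GSTP1 and MGST1, both 0.22, and GGCT (-0.49), GSTO1 (-0.39) and GLRX5 (-0.25). With si-RAB23-1, 2 of the 25 rose (8%) and 2 fell (8%), against 8.13% and 7.26% of all tested genes, so both shares were near the background. MGST1 (0.27) and ESD (0.17) rose and GPX8 (-0.47) and HAGH (-0.36) fell. Of 15 thioredoxin and peroxiredoxin genes, PRDX4 alone was called with si-RAB23-9, a rise (6.67%, against 7.56% of all tested genes). With si-RAB23-1, 4 of the 15 rose (26.7%) and 3 fell (20%), against 8.13% and 7.26% of all tested genes, the largest being PRDX4, TXNIP (0.58), the thioredoxin-binding protein gene, TXNRD3 (0.34) and MSRA (-0.32).

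Another 10 tested genes were listed under NADPH supply and the pentose phosphate pathway. Of these, RPIA (0.35) rose and ME3 (-0.34) fell with si-RAB23-9 (10% each, against 7.56% and 5.69% of all tested genes). With si-RAB23-1, IDH2 (-0.41) and IDH1 (-0.26), the NADP-dependent isocitrate dehydrogenases, fell (20%, against 7.26%). Of 4 superoxide and peroxide genes, SOD1 rose by 0.13 with si-RAB23-9 (25%, against 7.56% of all tested genes). SOD2, the mitochondrial superoxide dismutase gene, rose by 0.38 with si-RAB23-1 (25%, against 8.13%). Of 10 haem and iron genes, SLC48A1, a haem transporter gene, fell with both siRNAs (-0.24 and -0.28). That is 10% with each, against 5.69% and 7.26% of all tested genes. With si-RAB23-1, TFRC (0.37), the transferrin receptor gene, HMOX2 (0.27), and the biliverdin reductase gene BLVRA (0.22) rose, as did BLVRB (0.21). These are 40% of the 10, against 8.13% of all tested genes.

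Of 17 detoxification genes, the aldehyde dehydrogenase genes ALDH3A1 (-0.55), ALDH3A2 (-0.27) and ALDH1A3 (-0.21) and the gene TRIM16 (-0.23) fell with si-RAB23-9, and AKR7A2 (0.30) rose. Thus 23.5% fell and 5.88% rose, against 5.69% and 7.56% of all tested genes. With si-RAB23-1, ALDH1A3 (-0.51), ALDH3A1 (-0.40), POR (-0.27), which encodes the electron donor of cytochromes P450, and AKR1A1 (-0.14) fell, and TRIM16L (0.31) rose. The shares were again 23.5% and 5.88%, against 7.26% and 8.13% of all tested genes. With 1 library left out, PRDX4 and GGCT kept their calls throughout with si-RAB23-9, and NFE2L1, PRDX4, PRDX6, TXNIP and ALDH1A3 with si-RAB23-1. The other 15 and 23 calls were lost without at least 1 library, with limma adjusted p up to 0.201 and 0.208.

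**Figure D4:**
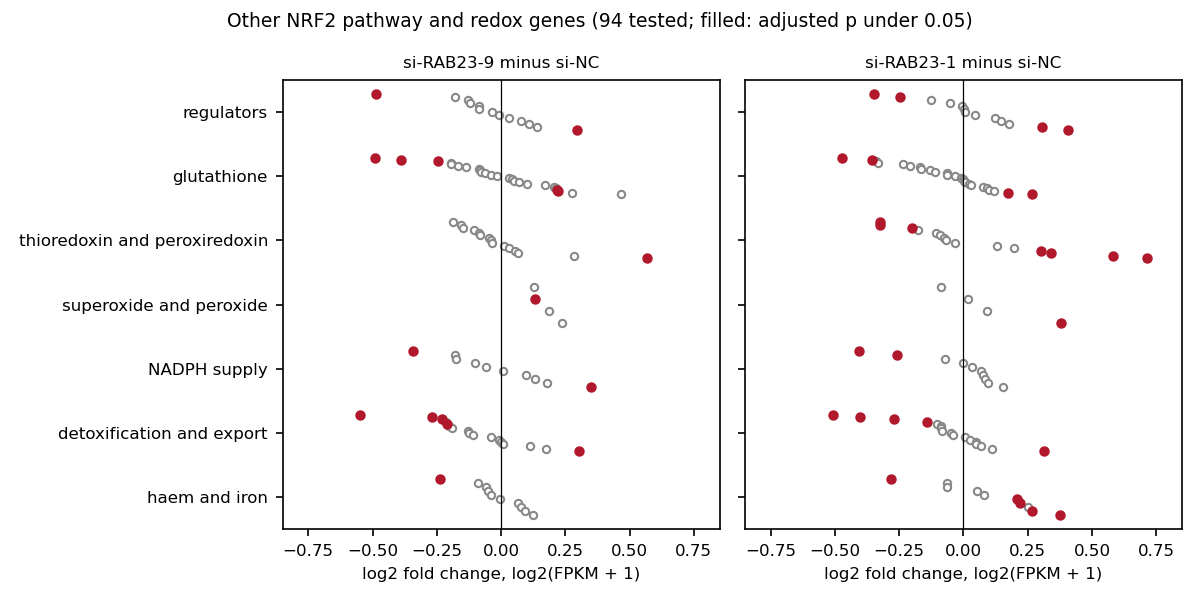
Log2 fold change on the log2(FPKM + 1) scale of the 94 tested genes of the wider lists, 1 row per list, for si-RAB23-9 and si-RAB23-1 against si-NC (filled red points: limma adjusted p under 0.05). Calls lie on both sides of 0, with 7 higher and 10 lower for si-RAB23-9 (7.56% and 5.69% of all tested genes) and 14 of each for si-RAB23-1 (8.13% and 7.26% of all tested genes).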

How the data were processed

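Total RNA of KYSE30 cells was sequenced in 6 libraries and, per the labels' protocols, libraries followed standard Illumina procedures. The authors deposited 1 FPKM column per library. Per the submitters' processing notes, the build was hg19 and the tools included RSEM 1.2.29, STAR 2.5.1b, Trimmomatic 0.36, edgeR 3.8.5 and FastQC, with no step given for any of them. All 58735 genes have the start and end of GENCODE 29 on GRCh38, so coordinates are given on that build. FPKM times gene length, divided by a step fitted in each library as the value of 1 read, gave whole reads for 100% of values above 0 (tolerance 0.01 read). The FPKM denominators inferred from these steps lay between 0.963 and 0.990 of the recovered totals.

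Of 35196 genes above 0, 14352 with at least 1 FPKM in at least 2 libraries were tested on log2(FPKM + 1) by limma 3.58.1 under R 4.3.3, fitting 1 mean per group, a trended eBayes fit (3 residual degrees of freedom) and two-sided tests. Benjamini-Hochberg adjustment ran over all genes tested. The fit was also run on simulated reads, with changes larger than most of the member changes reported here. That run does not cover changes of the smaller size. In each wider list up to 4 called genes of largest change per comparison were named; MGST1, ALDH1A3, AKR1A1 and BLVRB complete lists of 5 or fewer calls, and PRDX6 was named after its values were seen. Members and lists were chosen with earlier results of these data known. Alternatives were another pseudocount (0.1), filter and scaling, voom on recovered reads, a replicate block, and each library left out. Reads of overlapping or near-identical genes could fall to either gene, and the strand of the libraries is not given in the sources used here.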

Additional observations from a re-analysis of the deposited data

Results flagged for a closer look

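For 12 of the 28 tested members the response to the siRNAs differed in the direct test of si-RAB23-9 against si-RAB23-1, where 21% of all tested genes were called (limma, adjusted over all genes). Lower with si-RAB23-9 than with si-RAB23-1 were HMOX1 (log2 fold change -0.73), FTH1 (-0.51), SRXN1 (-0.43), GCLM (-0.29), GCLC (-0.29), ABCC3 (-0.24) and ME1 (-0.20). Higher with si-RAB23-9 were TXNRD1 (0.46), EPHX1 (0.42), NQO1 (0.26), SLC7A11 (0.25) and PGD (0.24). The differences of HMOX1, FTH1 and TXNRD1 held with any 1 library left out, and the other 9 were lost without at least 1. TXNRD1 and ME1 had moved the same way with both siRNAs against si-NC, and FTH1 in opposite ways. Groups of 2 libraries are too small for a search for outlying libraries.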

How the results depend on the processing

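The counts of calls depend on the number of libraries and genes tested. Leaving out 1 library gave 1 to 7 called members with si-RAB23-9 (7 as reported), 4 to 11 with si-RAB23-1 (14 as reported) and 3 to 9 between the siRNAs (12 as reported). Over all genes the ranges were 258 to 2075, 338 to 1820 and 705 to 2691, in the same order. In these fits the lone library of a group is assumed to vary like the others. Without a filter on low values, 4, 5 and 5 members and 983, 1049 and 1458 genes were called in that order. The calls kept there were TXNRD1, ME1, TKT and ABCC3 with si-RAB23-9, TXNRD1, ME1, HMOX1, TKT and GSR with si-RAB23-1, and TXNRD1, HMOX1, FTH1, NQO1 and ABCC3 between the siRNAs. Voom on recovered reads called 12 members with si-RAB23-9 by library totals and 11 by median-of-ratios sizes. Over all genes these settings called 3408 and 3407 genes with si-RAB23-9, and 3800 and 3794 genes with si-RAB23-1. The causes were not tested, beyond the fewer libraries or the added genes of these settings.

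The replicate numbers of the titles were also used as a block, although samples with the same number did not deviate together (correlations across genes -0.06 to 0.06). The block gave 6 members with si-RAB23-9, 11 with si-RAB23-1 and 11 between the siRNAs, and 1437, 1655 and 2423 genes. It ended the calls of SLC7A11 with si-RAB23-9, of GCLC, NQO1, ABCC2 and PIR with si-RAB23-1, and of SLC7A11 and ME1 between the siRNAs (limma adjusted p 0.0506 to 0.0683), and added EPHX1 with si-RAB23-1 (0.028) and KEAP1 between the siRNAs (0.0381). No member called as reported or under an alternative changed direction. Of 1167 member values under the alternatives, 37 had another sign than reported, all of them called in neither fit. Counts of calls under another pseudocount, a mean of at least 5 FPKM, median-of-ratios scaling and quantile normalization stayed within 1.5 times those reported.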

Other observations

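Between the siRNAs, limma called 36 of the 94 tested genes of the wider lists, 17 of them higher with si-RAB23-9 and 19 lower. These are 38.3%, 18.1% and 20.2% of the 94, against 21%, 11.1% and 9.89% of all tested genes. Glutathione genes among them were CHAC1 (0.67), GSTM3 (0.54) and GGT1 (0.51), all higher, and GSTO1 (-0.48). TXNIP (-0.62) and PRDX6 (-0.27) were lower, and SESN2 (0.39), a stress-induced sestrin gene, and PRDX2 (0.26) higher. Of the regulators, SQSTM1 and MAFF (both -0.44) and MAFK (-0.23) were lower and NFE2L3 (0.36) was higher. IDH1 (0.39), RPIA (0.35) and IDH2 (0.35) were higher and ME3 (-0.41) lower, as were TFRC (-0.41), FECH (-0.31) and BLVRA (-0.22). TRIM16L (-0.44) and TRIM16 (-0.34) were lower, and POR (0.38), AKR7A2 (0.35) and CCS (0.32) higher. With any 1 library left out, 9 of the 36 calls held, and the other 27 were lost at least once, with limma adjusted p up to 0.206.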
